A study of Danio rerio with 48 samples.

Results

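The genes described here are named for the conjugation enzymes of 3 families in zebrafish (Danio rerio): the UDP-glucuronosyltransferases (UGT), the glutathione S-transferases (GST) and the cytosolic sulfotransferases (SULT). They were taken by gene symbol from the deposited count table, as symbols that begin with ugt and a family number from 1 to 8, with gst and a further letter, or with sult and a family number from 1 to 6. Of 25445 genes in the table, 64 matched: 29 UGT, 17 GST and 18 SULT genes. The rule also took in gstcd, named for a GST domain and not for a class, and ugt1b6p and ugt5a4, annotated as pseudogenes. A filter on low counts left 53 of them for testing (22 UGT, 16 GST and 15 SULT), among 20723 genes tested in all. The 11 that were too low to test were gstk4, sult1st5, sult1st9, sult3st1, ugt1b3, ugt1b4, ugt1b6p, ugt5c1, ugt5c2, ugt5e1 and ugt5g2.

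The heads came from larvae of a mixed wild-type strain, exposed from the day of fertilization, with the medium renewed daily, to the potassium salt of perfluorohexane sulfonate (PFHxS), a persistent fluorinated surfactant. There were 8 groups: 4 and 5 days post fertilization (dpf), each at 0, 7.87, 14 and 25.1 µM, and every group including the controls carried 0.4% of the solvent DMSO. Each group had 6 libraries, each made from polyA RNA of 15 pooled heads, with the cut just anterior to the swim bladder. A pool averages over its larvae, and a head cut at that level can carry digestive organs. Whether the pools of a group go back to different clutches is not in the labels. The p-values therefore cover differences among pools, which may be partly technical.

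Conjugation makes a fat-soluble molecule more water-soluble so that it can be excreted. UGT enzymes sit in the endoplasmic reticulum and add glucuronic acid from UDP-glucuronic acid, SULT enzymes work in the cytosol and add sulfate from the donor PAPS, and GST enzymes add the thiol of glutathione to electrophiles. The liver is a main site of all 3 reactions in vertebrates, the intestine and kidney contribute, and bilirubin, steroids and thyroid hormones are among the body's own substrates. Perfluoroalkyl acids themselves are not known to be conjugated.

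Library totals ranged from 16.6 M to 39.2 M counts (M for 1000000), with a median of 22.9 M. Levels are given as CPM (counts per 1000000 counts of a library), with library sizes scaled by trimmed means of M-values (TMM). They were compared within a gene or within the sum of a family, and not between genes, since gene lengths were not used. A family sum is weighted towards its most counted genes. Head markers were present throughout: the mean log2 CPM of a photoreceptor list lay between 7.59 and 9.11 in all 48 libraries, and that of a neuron list between 6.32 and 7.25. Liver markers were present too. The summed level of 39 liver marker genes ranged from 297 to 14940 CPM, no marker was at 0 in every library, and the group median was 1085 CPM in control heads at 4 dpf and 11091 CPM at 5 dpf. In RNA from pooled heads, a change in the number of cells of a type and a change in RNA per cell cannot be told apart, which holds for every result that follows.

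Age from 4 to 5 dpf moved most of these genes. In DMSO, 37 of the 53 tested members rose and 3 fell at an adjusted p under 0.05 in edgeR's quasi-likelihood test with Benjamini-Hochberg adjustment, against 21.7% of all tested genes that rose and 20.2% that fell. In 23 members every library at 5 dpf lay above every library at 4 dpf, and in 2 (gstk1 and gstm.3) below, where 28.4% of all tested genes had groups that did not overlap. The median log2 difference was 1.90 over the members and 0.20 over all tested genes, and it differed by family, with 2.55 for UGT, 1.98 for SULT and -0.05 for GST. The summed UGT level was 30.7 ± 2.4 CPM at 4 dpf and 143.7 ± 34.1 CPM at 5 dpf (SD, n = 6 each). The summed SULT level was 22.1 ± 4.0 and 71.1 ± 11.5 CPM. The summed GST level was 121.3 ± 39.7 and 123.5 ± 16.6 CPM, so that the UGT and SULT sums of the 2 ages did not overlap while the GST sums did. Within the GST sum the gstp genes had means of 51.4 and 43.7 CPM, and the gstt genes 39.7 and 25.1 CPM.

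**Figure D1:**
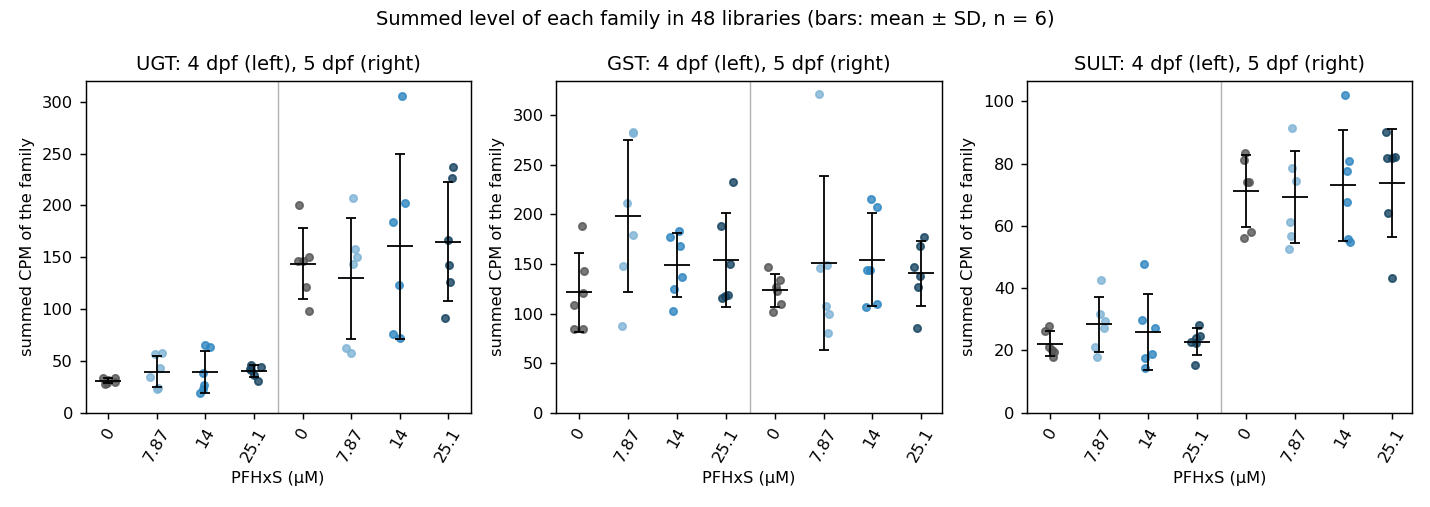
Summed level of the UGT, GST and SULT genes (CPM) in each library, by age and PFHxS concentration, with the mean and SD of each group of 6. UGT and SULT sums are higher at 5 dpf at every concentration, and GST sums cover much the same range at both ages.

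Of the 22 UGT genes tested, 20 rose between 4 and 5 dpf in DMSO and none fell. The gene ugt1a1 lies on chromosome 9 (9969987 to 10003783, minus strand, GRCz11) and belongs to the family whose mammalian member conjugates bilirubin. In DMSO its level was 1.77 CPM in the lowest library, 3.02 CPM at the median and 4.97 CPM in the highest at 4 dpf, and 27.0, 51.6 and 78.5 CPM at 5 dpf. The groups did not overlap, and the log2 difference was 4.01 ± 0.60 (SE, adjusted p = 1.2e-06, edgeR).

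The ugt2a genes belong to the UGT2 family, which in mammals conjugates steroids, bile acids and many drugs. The gene ugt2a4 (chromosome 5, 69926766 to 69948120, minus strand) went from 1.85, 2.44 and 2.95 CPM (lowest, median, highest) to 18.9, 22.3 and 36.8 CPM. The gene ugt2a7 (chromosome 5, 9377005 to 9438371, plus strand) went from 0.468, 1.27 and 2.37 CPM to 12.9, 18.9 and 24.5 CPM. Neither gene had overlapping groups. The log2 differences were 3.31 ± 0.56 for ugt2a4 (adjusted p = 8.6e-06, edgeR) and 3.84 ± 0.56 for ugt2a7 (adjusted p = 9.7e-07). Another gene of the family, ugt2a6, rose by 2.27 ± 0.54 (adjusted p = 0.00074). Counts of ugt2a4, ugt2a6 and ugt2a7 were fractional in 95.8%, 93.8% and 100% of libraries. Reads may thus be shared with other models, and the split of counts is uncertain.

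The UGT5 genes form a family found in fish. The 5 overlapping gene models ugt5b1 to ugt5b5 on chromosome 1 and the pair ugt5a1 and ugt5a2 on chromosome 25 can share reads, so the split of counts between them is uncertain. Among them ugt5b4 had a median of 0.886 CPM at 4 dpf and 8.03 CPM at 5 dpf (log2 difference 3.04 ± 0.50, adjusted p = 6.3e-06, edgeR), and ugt5a1 had 0.218 and 1.42 CPM (2.88 ± 0.65, adjusted p = 0.00045). The summed level of the ugt5b models, which does not depend on how shared reads were split within the cluster, went from 2.2 ± 0.93 to 15.2 ± 4.2 CPM (SD, n = 6). Genes with no counts in any control library at 4 dpf were bounded with 3 counts over the 6 libraries: ugt5d1 was at least 19.5-fold higher at 5 dpf, ugt1b2 at least 15.1-fold, ugt5a2 at least 13.3-fold and ugt5a4, annotated as a pseudogene, at least 6.90-fold. The model of ugt1b2 overlaps other ugt1b models, so the split of its counts is uncertain too. Its mean in DMSO at 5 dpf was 0.394 CPM.

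The gene ugt8 (chromosome 1, 20556067 to 20593779, minus strand) stands apart by function, since in mammals its product adds galactose to ceramide to make a myelin lipid. Its control libraries lay at 2.04, 2.26 and 3.36 CPM at 4 dpf and at 6.23, 7.61 and 9.51 CPM at 5 dpf, with no overlap (log2 difference 1.62 ± 0.35, adjusted p = 0.00021, edgeR). The exceptions within the family were ugt1b1 and ugt1b5. The level of ugt1b1 (chromosome 11, 30321116 to 30329056, plus strand) was 8.64, 11.3 and 13.3 CPM at 4 dpf and 7.86, 9.26 and 10.9 CPM at 5 dpf, with overlapping groups (log2 difference -0.23 ± 0.19, adjusted p = 0.33). The ugt1b models overlap each other on the same strand, and their summed level was 15.7 ± 1.4 CPM at 4 dpf and 14.6 ± 1.5 CPM at 5 dpf (SD, n = 6).

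**Figure D2:**
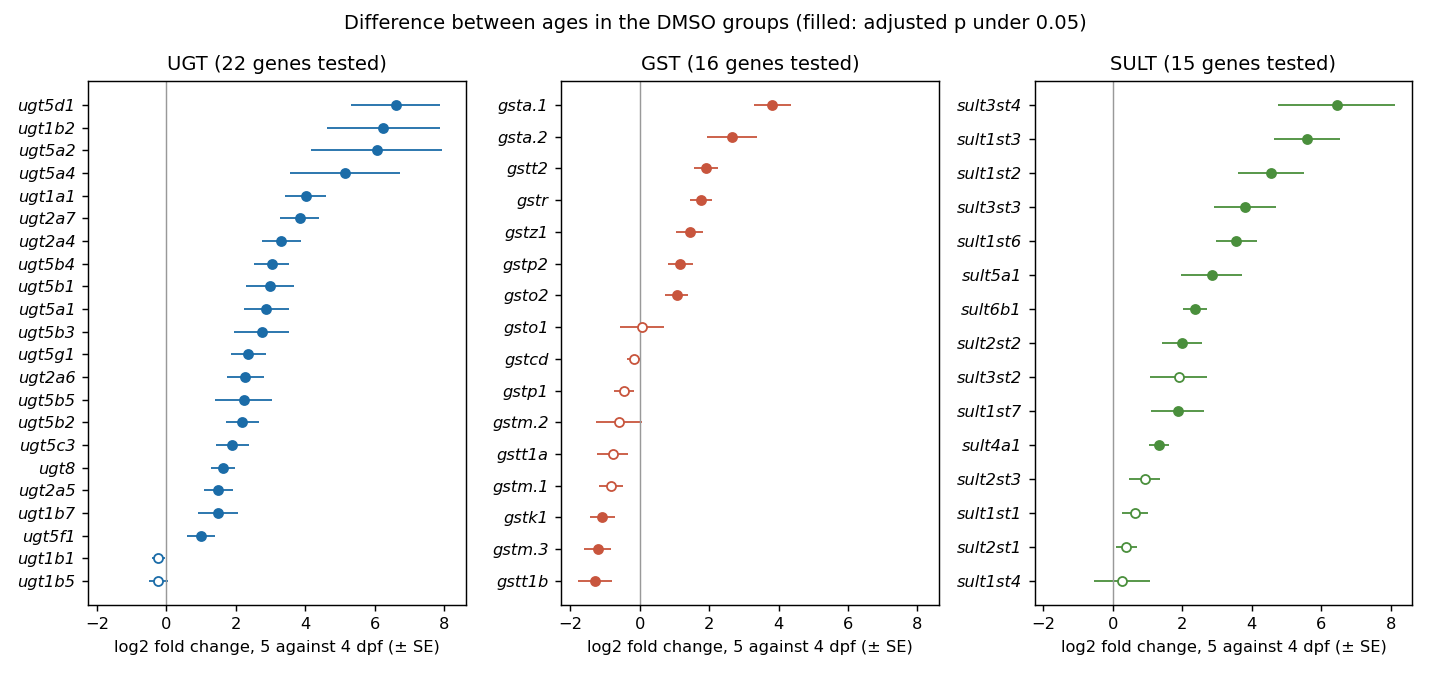
Log2 difference between 5 and 4 dpf in DMSO for each of the 53 tested members, with its SE, grouped by family, filled where the adjusted p was under 0.05. UGT and SULT members lie mostly above 0, and GST members lie on both sides.

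The GST genes were divided: 7 of 16 rose between 4 and 5 dpf in DMSO, 3 fell and 6 did not pass the test. Those that rose came from several classes. The alpha-class gene gsta.1 (chromosome 13, 844143 to 852507, plus strand) went from 0.471, 0.919 and 1.49 CPM at 4 dpf to 9.05, 13.0 and 20.4 CPM at 5 dpf without overlap (log2 difference 3.83 ± 0.52, adjusted p = 2.8e-07, edgeR). The gene gstr, of the rho class found in fish, went from 3.24, 5.71 and 7.14 CPM to 11.3, 19.9 and 25.2 CPM, also without overlap (1.78 ± 0.32, adjusted p = 2e-05). Also higher at 5 dpf were gstt2, a theta-class gene (1.92 ± 0.34), gstz1, whose product is an isomerase of tyrosine breakdown (1.44 ± 0.38), and gsto2 of the omega class (1.06 ± 0.34). The pi-class gene gstp2 rose by 1.17 ± 0.36 (adjusted p = 0.0081), and gsta.2 by 2.66 ± 0.72.

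The 3 GST genes that fell were gstk1, gstm.3 and gstt1b. The kappa-class gene gstk1 (chromosome 16, 32009203 to 32013930, minus strand), whose mammalian product is found in mitochondria and peroxisomes, lay at 3.1, 5.48 and 7.78 CPM at 4 dpf and at 2.05, 2.47 and 2.80 CPM at 5 dpf. The groups did not overlap (log2 difference -1.08 ± 0.36, adjusted p = 0.015, edgeR). The mu-class gene gstm.3 (chromosome 8, 25302172 to 25307015, plus strand) lay at 1.93, 2.61 and 5.17 CPM and then at 0.867, 1.3 and 1.58 CPM (-1.21 ± 0.39, adjusted p = 0.011). Its call rested on 1 control library: without library F at 4 dpf the adjusted p was 0.0513. The theta-class gene gstt1b changed by -1.28 ± 0.48 (adjusted p = 0.027), and its adjusted p was 0.0822 without library F at 4 dpf and 0.0569 and 0.0588 without libraries H and I at 5 dpf. The other pi-class gene, gstp1 (chromosome 14, 3507326 to 3514056, plus strand), a known target of the oxidative stress factor Nrf2 in zebrafish, lay at 30.9, 40.4 and 87.9 CPM at 4 dpf and at 25, 35.6 and 47.9 CPM at 5 dpf, with overlap (-0.45 ± 0.29, adjusted p = 0.21). The neighbouring genes gstp1 and gstp2 had fractional counts in every library, so that reads may be shared with other models and the split between the pair is uncertain.

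Of the 15 SULT genes tested, 10 rose between 4 and 5 dpf in DMSO, none fell, and sult1st1, sult1st4, sult2st1, sult2st3 and sult3st2 did not pass the test. In mammals SULT1 enzymes mainly sulfate phenols, among them oestrogens and thyroid hormones, and SULT2 enzymes sulfate hydroxysteroids. The gene sult6b1 (chromosome 11, 43375326 to 43388064, plus strand) went from 3.95, 5.51 and 9.43 CPM to 23.8, 29.6 and 34.9 CPM without overlap (log2 difference 2.35 ± 0.34, adjusted p = 9.7e-07, edgeR). Of the SULT1 genes, sult1st3 went from a median of 0.0295 to 2.27 CPM (5.58 ± 0.96), sult1st2 from 0.0627 to 1.94 CPM (4.55 ± 0.95) and sult1st6 from 0.178 to 2.3 CPM (3.55 ± 0.59). In all 3, no control library at 5 dpf was as low as the highest at 4 dpf. The gene sult2st2 went from 0.128, 0.657 and 1.9 CPM to 1.85, 3.29 and 3.57 CPM, with 5 of the 6 libraries at 5 dpf above all at 4 dpf (1.98 ± 0.58, adjusted p = 0.0052). Its medians at 5 dpf in 7.87, 14 and 25.1 µM were 2.57, 3.01 and 1.62 CPM. The level of sult1st1 had medians of 3.07 and 6.16 CPM (0.64 ± 0.37, adjusted p = 0.16). The gene sult3st4, with no counts at 4 dpf in DMSO, was at least 17.4-fold higher at 5 dpf. The gene sult4a1 (chromosome 4, 8797197 to 8810741, plus strand), whose mammalian counterpart is expressed mainly in the brain, went from 4.41, 5.35 and 8.25 CPM to 10.9, 14.0 and 20.7 CPM, again without overlap (1.33 ± 0.28, adjusted p = 0.00015).

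In exposed heads, too, more members rose than fell with age, but at 7.87 and 14 µM fewer had ages apart than in DMSO. All libraries at 5 dpf lay above all at 4 dpf in 4, 12 and 22 members at 7.87, 14 and 25.1 µM, beside 23 in DMSO. In the same order of concentration, they lay below in 0, 0 and 3 members. Groups did not overlap in 13.4%, 13.6% and 29.2% of all tested genes. The calls of the edgeR test were as follows. At 7.87 µM 30 members rose and 6 fell with age (26.9% and 23.7% of all genes), at 14 µM 36 rose and 4 fell (22% and 19%), and at 25.1 µM 33 rose and 4 fell (25.8% and 21.2%). At all 4 concentrations 25 members rose (14 UGT, 5 GST and 6 SULT), and gstk1, gstm.3 and gstt1b fell, where 11.2% of all tested genes rose and 15.6% fell at all 4. The theta-class gene gstt1a fell at 7.87, 14 and 25.1 µM (log2 differences -1.32, -1.23 and -1.38, adjusted p = 0.013, 0.025 and 0.011, edgeR) and had -0.78 ± 0.44 in DMSO (adjusted p = 0.15). Libraries A and D at 14 µM and C and D at 7.87 µM, all at 5 dpf, had exocrine pancreas scores under 0. Without them no member fell at 14 µM and 3 fell at 7.87 µM, while 33 and 32 rose. The shares of all tested genes in that smaller set are not given, so these counts are not read as particular to the members.

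The levels of ugt1a1, ugt8 and ugt5b4 in exposed heads are given here beside their controls, and those of the GST genes gstp2 and gstm.1 further on. In ugt1a1 the medians at 7.87, 14 and 25.1 µM were 44.5, 51.1 and 53.4 CPM, beside 51.6 CPM in DMSO, and the single libraries ran from 11.7 CPM at 7.87 µM to 127 CPM at 14 µM. At 4 dpf its medians were 2.88, 5.25 and 5.08 CPM. In ugt8 the medians at 5 dpf were 7.06, 6.83 and 8.22 CPM, and at 4 dpf 2.43, 1.96 and 2.82 CPM. In the ugt5b4 libraries at 5 dpf the medians were 9.81, 7.23 and 7.92 CPM.

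Levels at 5 dpf were also compared for 2 sulfotransferase genes and the alpha-class gene gsta.1. Medians in 7.87, 14 and 25.1 µM were 23.1, 31.5 and 31.4 CPM for sult6b1, 15.1, 14.0 and 11 CPM for sult4a1, and 12.7, 13.4 and 13.5 CPM for gsta.1. Each of these medians lies within the range of the DMSO libraries at 5 dpf, apart from sult6b1 at 7.87 µM, which lies just under its lowest control of 23.8 CPM. Single libraries spread wider. In gsta.1 they ran from 3.89 to 23.9 CPM at 7.87 µM and from 4.56 to 27.0 CPM at 14 µM, beside 9.05 to 20.4 CPM in DMSO. At 7.87 µM its libraries C, D and F (3.91, 3.89 and 6.44 CPM) lay under the lowest control. Those of sult6b1 at 7.87 µM ran from 15.0 to 39.2 CPM. Of the members not called between ages in DMSO, sult2st1 had medians from 3.12 to 5.67 CPM over the 8 groups, and ugt1b1 from 8.26 to 11.3 CPM. In gstk1 the 4 groups at 4 dpf had medians from 4.80 to 8.87 CPM and the 4 at 5 dpf from 1.94 to 2.61 CPM, and in gstt1a from 29.7 to 44.0 CPM and from 12 to 18.6 CPM.

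Across libraries of the same group, many of the members that rose with age also rose with the liver content of the heads. The liver score, the mean log2 CPM of the 39 liver markers, none of which is a conjugation gene of this set, was fitted as a slope beside the 8 group means. Of 53 members, 23 rose with it and 1 fell (edgeR, adjusted p under 0.05), against 8.32% and 7.27% of all tested genes. They comprised 14 of 22 UGT, 3 of 16 GST and 6 of 15 SULT genes. Among the UGT genes, the slope was 0.86 ± 0.09 log2 units per unit of score for ugt1a1, 0.83 ± 0.08 for ugt2a4 and 0.71 ± 0.09 for ugt2a7. The slope was 0.48 ± 0.11 for gsta.1 and 0.32 ± 0.08 for ugt8. The single falling member was gstm.2 (-0.51 ± 0.17, adjusted p = 0.035).

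Of the 37 members that rose with age in DMSO, 22 also rose with the liver score, which is 59.5% of the first set and 95.7% of the second. Over all tested genes 1206 rose with both, 26.9% of the 4488 that rose with age and 69.9% of the 1725 that rose with the score. The pi-class genes did not pass the test (gstp1 -0.04, gstp2 0.08 log2 units per unit of score), nor did sult4a1 (0.03) or ugt1b1 (-0.02). The score itself was 2.11 ± 0.87 at 4 dpf and 5.61 ± 0.30 at 5 dpf in DMSO, with no overlap, so age and liver content cannot be told apart in the controls. The same holds for other organs: in DMSO the exocrine pancreas score went from 0.26 ± 1.08 to 4.82 ± 0.68, the intestine score from 0.20 ± 0.70 to 3.67 ± 0.36 and a score of pronephros and kidney markers from 1.87 ± 0.31 to 3.71 ± 0.15 (SD, n = 6), none with overlap. With the score as a term in the fit, 6 members passed the test between ages in DMSO, all higher at 5 dpf (gsta.1, gstr, sult4a1, sult6b1, ugt5b2 and ugt5c3), beside 4.92% of all genes higher and 9.38% lower at 5 dpf, and the log2 difference was 0.96 for ugt1a1 and 0.34 for ugt2a4. An intestine score or an exocrine pancreas score in place of the liver score was followed by 21 members each. The share of all tested genes that followed either score is not given, so these counts are not read as particular to the members. At the adjusted threshold 18 members rose with all 3 scores, and 5 passed on the liver score only (sult6b1, ugt1b7, ugt2a6, ugt5g1 and ugt8). The genes gstr, gstt1a and sult3st3 passed on the intestine and pancreas scores only. These sets depend on the threshold. Except for ugt8, the 5 also rose with the intestine and pancreas scores at an unadjusted p under 0.05 (edgeR). So did gstr, gstt1a and sult3st3 with the liver score. Shares of all tested genes are not given for these sets either. The difference between the slopes of a gene on 2 scores was not tested.

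**Figure D3:**
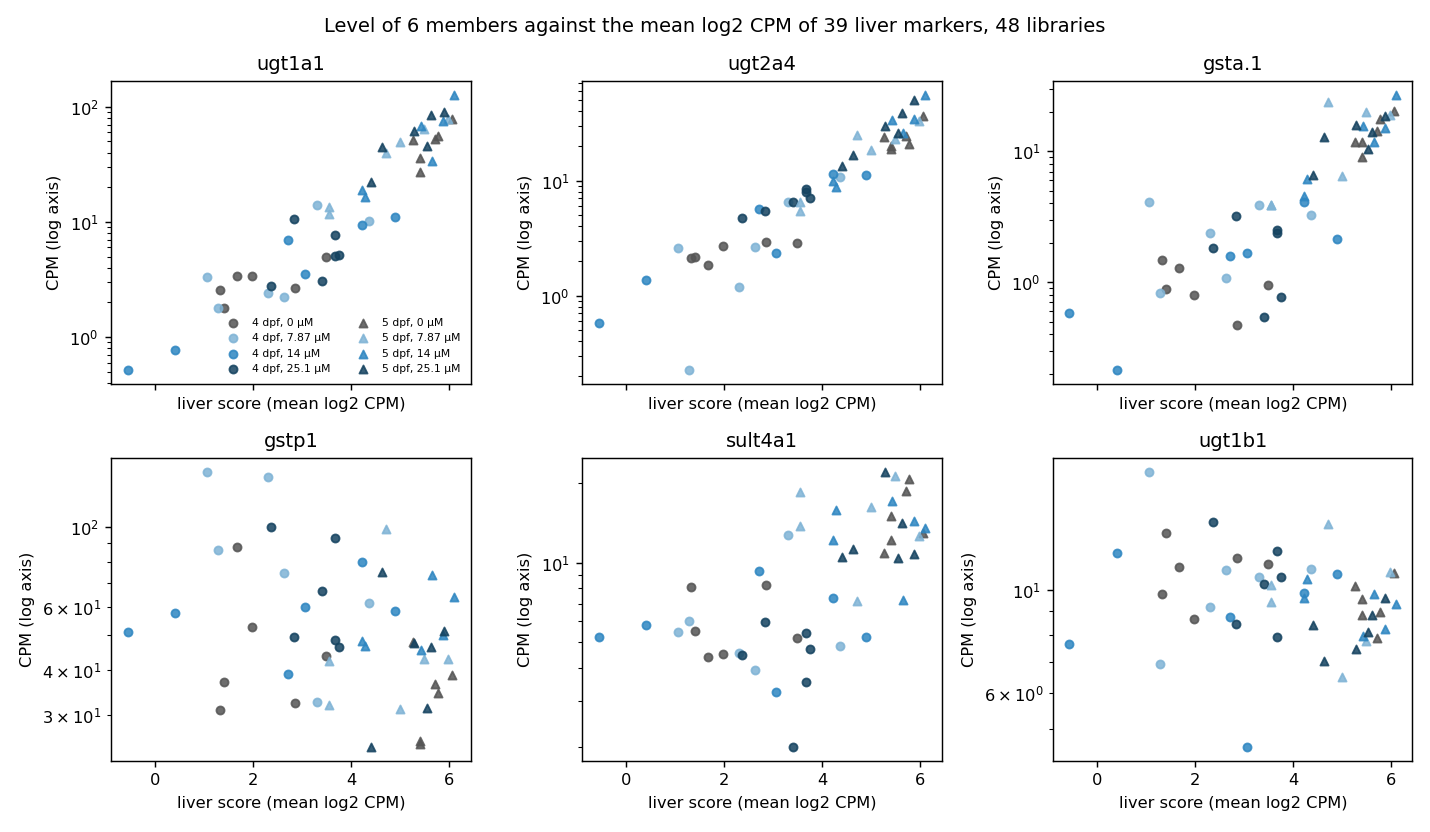
Level (CPM, log axis) of ugt1a1, ugt2a4, gsta.1, gstp1, sult4a1 and ugt1b1 against the liver score (mean log2 CPM of 39 liver markers) in each of the 48 libraries, by age and concentration. The first 3 genes climb with the score within groups, and the other 3 have slopes within 0.04 of 0.

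Lists of genes around the conjugation step changed with age in both directions, as did all tested genes in DMSO (21.7% rose and 20.2% fell). The counts below stand beside these shares, and changes in both directions are not read as particular to the lists. Of 13 genes listed for UDP-glucuronic acid supply, 6 rose and 1 fell between 4 and 5 dpf in DMSO. That list is broad and also holds transporter genes of other nucleotide sugars and gusb, for a glucuronidase. The gene ugdh, whose product makes UDP-glucuronic acid, went from 4.83 ± 1.39 to 14.3 ± 3.5 CPM (SD, n = 6, log2 difference 1.57 ± 0.35, adjusted p = 0.00038, edgeR). Of 12 genes of PAPS supply and sulfate release, 6 rose and 2 fell. The PAPS synthase gene papss2a rose by 2.00 ± 0.32, while papss1, for another PAPS synthase, fell by 0.44 ± 0.16 and the Golgi PAPS transporter gene slc35b2 fell by 1.01 ± 0.23. Of 18 glutathione genes, 6 rose and 1 fell: the reductase gene gsr rose by 1.11 ± 0.27, and gclc, for the catalytic subunit of the first enzyme of glutathione synthesis, had 0.13 ± 0.13 (adjusted p = 0.43).

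Of 15 transporters known to export conjugates or drugs, 8 rose and 3 fell, where 21.7% of all tested genes rose and 20.2% fell. The same shares apply to the other lists of this paragraph. The conjugate pump abcc2 went from 30.2 ± 15.9 to 218 ± 48 CPM (log2 difference 2.86 ± 0.56, adjusted p = 7.6e-05, edgeR). Of 31 regulators of such genes, 14 rose and 5 fell, with nr1i2, the pregnane X receptor, at 1.63 ± 0.36, and the aryl hydrocarbon receptor gene ahr2 at 0.43 ± 0.18 (adjusted p = 0.055). Of 7 microsomal GST relatives, 2 rose and 2 fell (mgst1.1 1.63 ± 0.42, mgst2 -2.15 ± 0.34), and of 14 other Nrf2 targets 5 rose and 2 fell (nqo1 1.38 ± 0.28). Of 10 genes of other conjugation reactions, such as methylation, 5 rose and none fell.

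No member passed the adjusted threshold in any comparison of a PFHxS concentration with DMSO of the same age, and neither did any other gene: 0 of 53 members and 0% of 20723 genes in each of the 6 contrasts. DESeq2 and limma also called 0 members in each. The 3 concentrations of an age share the same 6 DMSO libraries, so their values below are not independent of each other. The smallest adjusted p of a member was 0.215 (4 dpf, 7.87 µM). All genes of the lists on donor supply, glutathione, transport and regulation described above were likewise not called in any of the 6.

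At 4 dpf and 25.1 µM, 5 members had an unadjusted p under 0.05, each higher than in DMSO, where 2.61% of all tested genes had one. They were ugt2a4, ugt2a6, ugt2a7, ugt5d1 and gstp2. The ugt2a genes had mostly fractional counts, so their values may not be independent of each other. In ugt2a4 the DMSO libraries lay at 1.85, 2.44 and 2.95 CPM (lowest, median, highest) and those at 25.1 µM at 4.69, 6.82 and 8.47 CPM. Each exposed library lay above each control, and ugt2a4 was the 1 member of 53 with groups that did not overlap in this contrast, against 0.101% of all genes. The log2 difference was 1.46 ± 0.54 (adjusted p = 1, edgeR). A fit of only these 12 libraries gave 1.45 with an adjusted p of 0.0444. The share of all genes called in that smaller fit is not given. Liver scores were 3.28 ± 0.57 in the exposed and 2.11 ± 0.87 in the control group (SD, n = 6), and the summed liver markers ran from 1436 to 4318 CPM and from 715 to 3101 CPM. With the score as a term the difference was 0.43 (adjusted p = 1, edgeR).

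Both ugt2a7 and ugt2a6 had overlapping groups in this contrast. In ugt2a7 the libraries at 25.1 µM lay at 1.73, 3.47 and 5.26 CPM against 0.468, 1.27 and 2.37 CPM in DMSO (1.39 ± 0.54), and the log2 difference of ugt2a6 was 1.56 ± 0.55. The gene ugt5d1 had 15 counts over the 6 exposed libraries and 0 in the controls, at least 5.27-fold higher against 3 counts over the group. In gstp2 the exposed libraries lay at 4.07, 6.97 and 8.52 CPM and the controls at 2.23, 3.76 and 6.60 CPM (0.77 ± 0.36).

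At 4 dpf and 14 µM, 5 members were higher and 1 lower at an unadjusted p under 0.05, beside 5.05% of all genes. The higher ones were ugt2a4 (1.15), ugt2a6 (1.67), ugt2a7 (1.6 ± 0.55), ugt5d1 and sult6b1 (0.69 ± 0.34), and the lower one was gsta.2 (-3.84 ± 1.29), which had counts in 1 of 6 libraries of that group. In ugt2a4 this group spanned 0.583 to 11.4 CPM around a median of 4.04 CPM, and in ugt2a7 0.389 to 13.9 CPM around 2.14 CPM. Both spans take in all 6 control libraries. Single exposed libraries carried much of 2 of these values: without library D the log2 difference of ugt2a7 was 0.63, and without library B that of sult6b1 was 0.24. No member had groups that did not overlap at 14 µM (0.106% of all genes).

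At 4 dpf and 7.87 µM, the lowest concentration, 13 members were higher and none lower at an unadjusted p under 0.05, in a contrast where 12% of all genes were. Of the 13, 8 were GST genes: gstp1, gstp2, gsta.1, gstr, gstk1 and the mu-class genes gstm.1, gstm.2 and gstm.3. The other 5 were ugt1b2, ugt2a6, ugt5a2, ugt5b2 and ugt5d1. In gstp1 the exposed libraries lay at 32.5, 80.5 and 142 CPM and the controls at 30.9, 40.4 and 87.9 CPM, with overlap (0.91 ± 0.29, adjusted p = 0.219, edgeR). Control library F was the highest of the 6, and without it the log2 difference was 1.18 with an adjusted p of 0.0492. The share of all genes called without library F is not given. The largest differences among the GST genes were those of gsta.1 (1.4 ± 0.50) and gstm.2 (1.33), and in each of the 8 the groups overlapped. Without exposed library H the log2 difference fell to 0.56 for gstm.2, from 0.80 to 0.47 for gstr and from 0.81 to 0.54 for gstm.3. Without library A that of ugt2a6 went from 1.4 to 0.83, and without library B that of ugt5a2 was 0, since no other library of the contrast had a count. No member had groups that did not overlap (0.256% of all genes).

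The same contrast was uneven in another respect. Read from the order of the columns and the index numbers, the last 16 columns of the table may be a sequencing pool of their own. That block held 4 of the 6 control libraries at 4 dpf and none of those at 7.87 µM. With a term for the block, the difference of gstp1 was 0.59 (adjusted p = 0.972, edgeR), and among the libraries outside the block alone it was 0.57 (6 exposed, 2 controls). For ugt2a4 at 25.1 µM the differences inside and outside the block were 1.31 (2 exposed, 4 controls) and 1.5 (4 exposed, 2 controls).

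**Figure D4:**
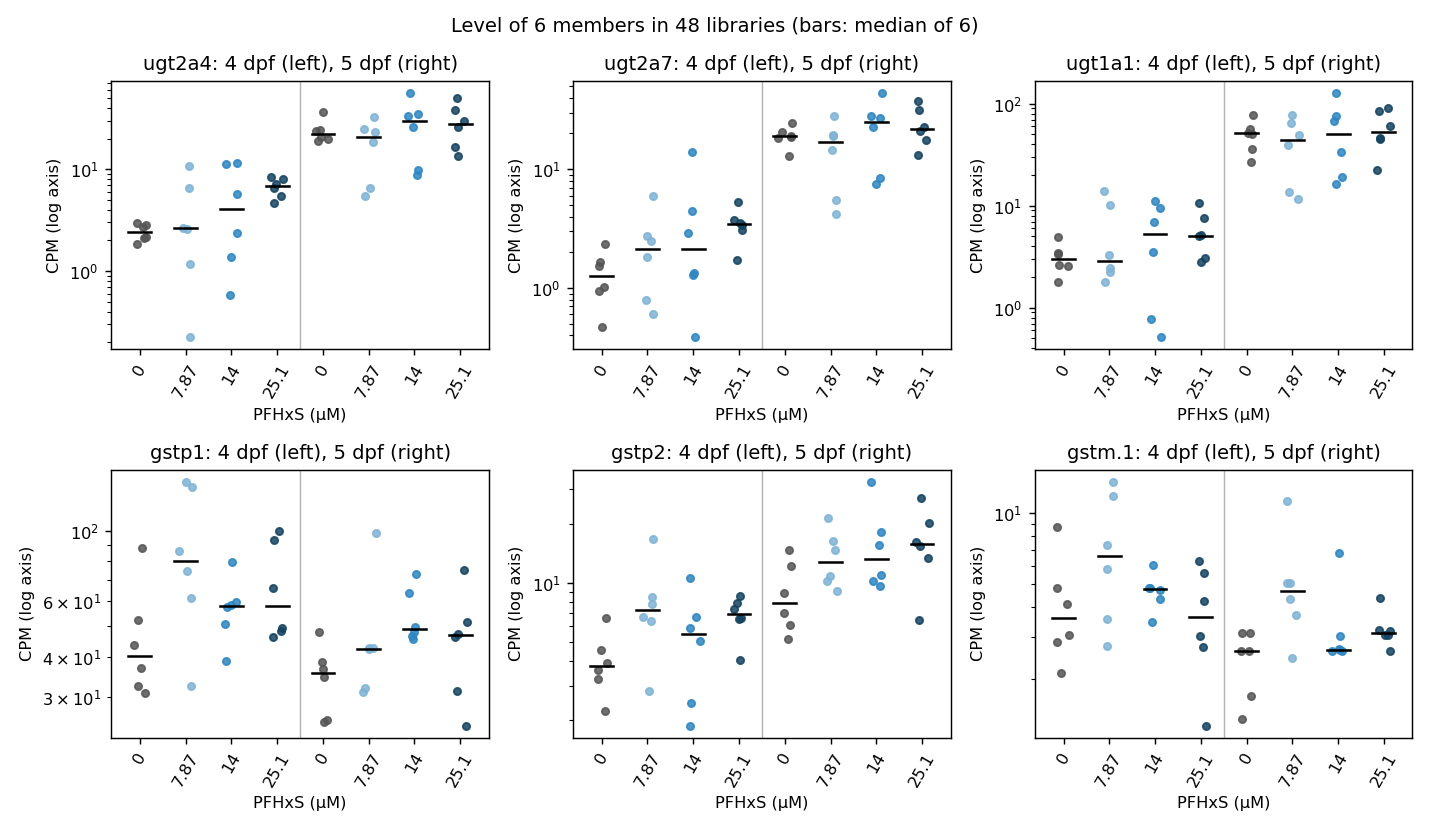
Level (CPM, log axis) of ugt2a4, ugt2a7, ugt1a1, gstp1, gstp2 and gstm.1 in each library of the 8 groups, with the median of each group. At 4 dpf the ugt2a4 libraries at 25.1 µM lie above all 6 DMSO libraries, while the other exposed groups overlap with DMSO.

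At 5 dpf fewer members were apart from DMSO. At 25.1 µM 1 member, gstp2, had an unadjusted p under 0.05 (0.671% of all genes), with 6.47, 15.7 and 26.9 CPM against 5.17, 7.93 and 14.7 CPM (log2 difference 0.87 ± 0.35, adjusted p = 1, edgeR). At 14 µM 2 members had one (0.729% of all genes), gstp2 with 9.62, 13.2 and 32.6 CPM (0.85 ± 0.35, and 0.52 without exposed library H) and gstp1 with 45.6, 49.0 and 73.2 CPM against 25, 35.6 and 47.9 CPM (0.65 ± 0.29). The groups overlapped in all 3 of these comparisons. Members with groups that did not overlap numbered 0 at 25.1 µM (0.154% of all genes) and 0 at 14 µM (0.125%).

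At 5 dpf and 7.87 µM the 3 members with an unadjusted p under 0.05 (4.69% of all genes) were the mu-class genes gstm.1, gstm.2 and gstm.3, neighbours on chromosome 8. In gstm.1 (25295160 to 25297929, plus strand) the exposed libraries lay at 2.46, 4.69 and 11.2 CPM and the controls at 1.36, 2.62 and 3.13 CPM (1.14 ± 0.35, adjusted p = 0.986, edgeR). Only the lowest exposed library, H, fell within the control range. The difference was 1.78 ± 0.64 for gstm.2 and 0.79 ± 0.38 for gstm.3. That of gstm.3 rested on exposed library I and was 0.17 without it. None of the 3 had groups apart, where 0.396% of all genes did. In ugt2a4 the same group ran from 5.44 to 32.7 CPM, and its lowest libraries, C and D with 5.44 and 6.47 CPM, were also those with the lowest liver scores of the group (3.54 each) and pancreas scores of -1.82 and -2.35. With the liver score as a term the difference of gstm.1 was 1.05 (adjusted p = 0.998, edgeR).

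**Figure D5:**
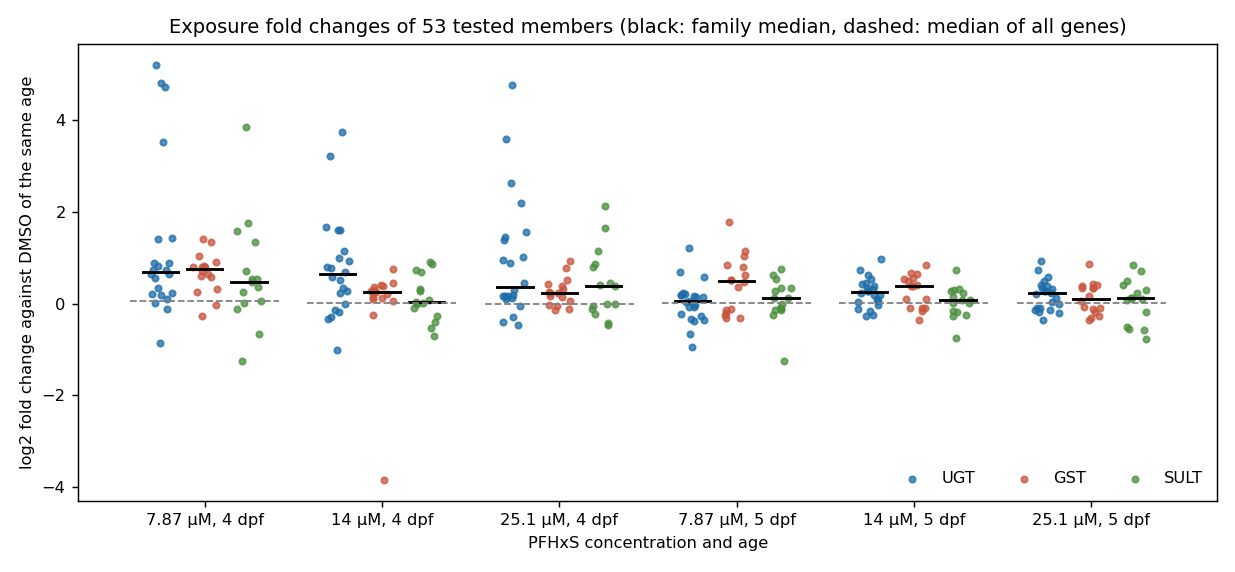
Log2 difference from DMSO of the same age for the 53 tested members at 7.87, 14 and 25.1 µM, by family and age. No point passed an adjusted p of 0.05, and at 4 dpf most points lie above 0, with 46 of 53 above it at 7.87 µM. The median of all tested genes in that contrast was 0.05, and its groups were uneven over the column block.

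As a description without a test, the members' median log2 difference from DMSO at 4 dpf was 0.65, 0.28 and 0.26 in order of rising concentration, against 0.05, 0.00 and -0.01 over all tested genes. Values above 0 were found for 46, 39 and 38 of the 53 members, and the share of all tested genes above 0 is not given. At 4 dpf the last 16 columns held 4 of the 6 control libraries and none of those at 7.87 µM. At 5 dpf the medians were 0.13, 0.19 and 0.13 (all genes 0.01, 0.02 and 0.01), with 30, 38 and 33 members above 0. By family, the median at 4 dpf was highest at 7.87 µM in all 3 families: 0.69 for UGT, 0.76 for GST and 0.47 for SULT, beside 0.37, 0.23 and 0.39 at 25.1 µM. Setting members with no control counts to their bounds could not move these medians, since each bound lay above the median of its family. The summed GST level at 4 dpf was 198.4 ± 76.7 CPM at 7.87 µM and 121.3 ± 39.7 CPM in DMSO (SD, n = 6), with overlapping libraries.

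Concentration as a straight line gave no member at either age. At 4 dpf 0 of 37 members and 0% of 18353 tested genes had a slope with an adjusted p under 0.05. The 2 members with an unadjusted p under 0.05 (0.926% of all genes) were ugt2a4, with 1.43 ± 0.56 log2 units over 25.1 µM, and ugt2a7, with 1.41 ± 0.62. At 5 dpf 1 gene of 20406 passed (0.0049%), which was not a member, and the 2 members under the unadjusted threshold (2.06% of all genes) were ugt5a1 (0.94 ± 0.37 over 25.1 µM) and gstp2 (0.81 ± 0.34).

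The effect of exposure was also compared between the ages. No interaction passed the adjusted threshold, for members or any other gene (0% at each concentration, edgeR). At an unadjusted p under 0.05 there was 1 member at 25.1 µM (ugt5d1, 1.84% of all genes), 1 at 14 µM (gsta.2, 2.31%) and 6 at 7.87 µM (gsta.1, sult3st4, ugt1b2, ugt5a2, ugt5b2 and ugt5d1, 6.56%), the last 6 all with a smaller difference from DMSO at 5 than at 4 dpf. Several of these rest on few counts. At 4 dpf and 7.87 µM sult3st4 had counts in library I only, ugt5a2 in B only and ugt1b2 in A and B only. These genes and ugt5d1 had no counts in DMSO at 4 dpf, so their shared direction is weak evidence.

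The precision of these comparisons depended on the spread between pools. The median SD of log2 CPM in the UGT genes was 0.71 in DMSO and 1.1, 1.15 and 0.62 at 7.87, 14 and 25.1 µM at 4 dpf, where it was 0.42, 0.68, 0.62 and 0.44 over all tested genes. At 5 dpf it was 0.49 in DMSO and 0.96, 0.84 and 0.69 in the exposed groups, against 0.32, 0.47, 0.40 and 0.36 over all genes. The UGT median was thus above that of all genes in each of the 8 groups, though single UGT genes lay below it. This was not particular to UGT. The SULT median was also above in each group, and the GST median in each except 14 µM at 4 dpf (0.58). Genes were not matched for level in this comparison.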

How the data were processed

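The authors deposited a table of expected counts per gene for 48 libraries (77.5% of values whole, tolerance 1e-09) and a quantile-normalised table, here taken to log2 with a pseudocount of 1. STAR 2.5.3a, Partek 8.0.19.0428 and GRCz11 are named in the submitters' processing notes. Here the expected counts were rounded and tested with edgeR 4.0.16 (R 4.3.3): TMM factors, filterByExpr, 1 mean per group over all 48 libraries, the quasi-likelihood F test and Benjamini-Hochberg adjustment over all genes tested, with a threshold of 0.05. TMM factors were 0.566 to 1.098 at 4 dpf and 1.100 to 1.925 at 5 dpf. These ranges do not overlap, so the size of each difference between ages also depends on the scaling. The SE was taken as the log2 difference over the square root of F. Log2 CPM used a prior count of 2. The fits were tested on simulated data. DESeq2 1.42.0 and limma 3.58.1 on the log2 quantile values were alternatives, with others on filter, scaling, samples, liver score and left-out libraries. No library pair within a group was a duplicate (120 pairs, smallest chi-square per gene 16.1).

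Values are given for 29 members: the 5 most counted of each family, the 3 smallest p per exposure contrast, the largest changes with age, and ugt8, sult4a1, gstp1, gstp2 and ugt2a4; the others appear as counts or examples chosen after their values were seen. Members, gene lists and marker lists were chosen with earlier results of these data known. The letters in the sample titles served as a block in an alternative. At 4 dpf, same-letter deviations from DMSO correlated above 0.1 in all 4 pairs at 25.1 µM (r from 0.119 to 0.253). They did so in 2 of 3 pairs at 14 µM (r up to 0.360) and 4 of 5 at 7.87 µM (up to 0.330). At 5 dpf 1 of 5, 0 of 4 and 2 of 5 pairs did at 25.1, 14 and 7.87 µM. Letters may thus mark something shared at 4 dpf, which the main fit does not model. The blocked fit changed no exposure call.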

Additional observations from a re-analysis of the deposited data

Results flagged for a closer look

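Of 256 values checked (29 members and 3 family sums in 8 groups of 6), 20 had 1 library whose gap to the nearest other, as a share of the group's range on the log2 scale, was beyond Dixon's critical value for 6 samples. Chance flags about 1 in 20 groups. All levels are in CPM.

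Several fell in the same libraries. At 5 dpf and 14 µM, library E was high in gstk1 (6.99, others 2.02 to 2.99), gstm.1 (6.76, others 2.62 to 3.05) and gstm.3 (3.76, others 1.13 to 1.74). At 5 dpf and 7.87 µM, library I was high in gstp1 (98.5, others 31.1 to 42.8) and gstt1b (18.6, others 1.27 to 2.78) and low in ugt8 (1.63, others 6.67 to 12.2). At 4 dpf and 7.87 µM, library B was low in gstt1a (12.9, others 32.8 to 54.5) and high in sult1st3 (0.66, others 0 to 0.0378) and sult4a1 (12.7, others 3.91 to 6.02). At 5 dpf and 25.1 µM, library D was low in gstr (11.3, others 21.8 to 25.3) and sult6b1 (18.6, others 29.8 to 38.0).

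In DMSO at 4 dpf, library F was high in sult1st1 (9.48, others 2.45 to 3.26) and sult2st1 (5.69, others 2.82 to 3.61), and library I was at 0 in ugt5a1 (others 0.19 to 0.295). In DMSO at 5 dpf, library G was high in ugt2a4 (36.8, others 18.9 to 24.3). At 4 dpf and 25.1 µM, library D was at 0 in ugt5b2 (others 0.659 to 0.878) and low in the SULT sum (15.2, others 22.4 to 28.1), and library F was low in gstp2 (4.07, others 6.51 to 8.52). At 4 dpf and 14 µM, library B was the only one with counts of gsta.2 (0.072, others 0), and library H was at 0 in ugt2a6 (others 0.769 to 2.38).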

How the results depend on the processing

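In the exposure contrasts 0 members were called under every alternative run (DESeq2, scaling by relative log expression, filters, limma, the letter block, a column-block term, the liver score, other sets of libraries, robust dispersion) with 2 exceptions: a fit of only the 12 libraries of 25.1 µM and DMSO at 4 dpf called 1 (ugt2a4), and leaving out each library in turn gave 0 to 1 at 7.87 µM and 4 dpf (gstp1, without DMSO library F) and 0 in the other 5. The cause was not tested, and the share of all tested genes called in these fits is not given. The age counts fell most with the liver score as a term: 6 in DMSO in place of 40, 15 at 7.87 µM in place of 36, 15 at 14 µM in place of 40 and 23 at 25.1 µM in place of 37. Over all tested genes the calls in DMSO fell too, from 21.7% higher and 20.2% lower at 5 dpf to 4.92% and 9.38%. Shares of all genes are not given for the other counts of this paragraph. Limma on the quantile values, which tested 43 members, called 23 at 7.87 µM and 25 at 14 µM. The slope on the liver score called 9 members of 37 tested within the 24 libraries of 4 dpf, in place of 24. Leaving out a library in turn gave 36 to 40 age calls in DMSO, 33 to 37 at 7.87 µM, 33 to 41 at 14 µM and 35 to 38 at 25.1 µM. With the letter as a replicate block the age counts were 41, 36, 39 and 37 for DMSO, 7.87, 14 and 25.1 µM, and no exposure, interaction or other call changed by over 1.5 times. Leaving out the 5 dpf libraries with a pancreas score under 0, and robust dispersion, were chosen after seeing the data. Scaling by relative log expression changed the sign of at most 1 member per contrast. Members with medians under 1 CPM rest on few counts, which limits what could be detected for them.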
